A study of Mus musculus with 6 samples.

Results

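The genes described here encode 10 inhibitors of mitogen-activated protein kinase (MAPK) signalling, of 24935 genes measured. They are the dual-specificity phosphatases Dusp1, Dusp4, Dusp5, Dusp6 and Dusp14, the Sprouty genes Spry1, Spry2 and Spry4, and the Sprouty-related genes Spred1 and Spred2. Members were chosen by symbol, with earlier results of these data known. All 10 were among the 17778 genes tested, those with a mean normalized count of at least 10. RNA came from the left hippocampus of C57BL/6 mice at P14 (P for postnatal day). Hyperoxia-exposed pups (n = 3) had been kept with their dams in 85% oxygen in a normobaric chamber from P2 to P14, and air-exposed pups (n = 3) had been kept in room air. Each library was made from polyA RNA of 1 mouse. The libraries are numbered 1 to 3 within a group as in the deposited columns, and the columns could not be matched to single animals. Every direction follows the group that the columns name. Whether those names are right could not be settled from the sources used here, and all directions would turn if they were exchanged. Exposure ended on the day of harvest, and whole tissue was used, so fewer cells of a type and less RNA per cell cannot be told apart.

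Growth factors, neurotrophins and synaptic activity switch on the RAS, RAF, MEK and ERK kinases in turn, and hippocampal neurons need ERK for lasting synaptic change. Active ERK raises transcription of its own inhibitors, which is why the mRNAs of many of these genes are often read as a trace of recent ERK activity. Dual-specificity phosphatases remove phosphate from both the threonine and the tyrosine that activate a MAPK. Sprouty proteins act between receptor tyrosine kinases and RAF, and Spred proteins act on RAS, in part by bringing the RAS inhibitor neurofibromin to the membrane.

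Of the 10 genes, 4 were lower in hyperoxia-exposed mice (Dusp5, Dusp6, Spry1 and Spry4), Spred1 was higher, and 5 did not pass the test (Dusp1, Dusp4, Dusp14, Spry2 and Spred2). Each gene was tested with limma, whose variance estimate followed the level of the gene, on the log2 scale of the normalized count plus 1. Adjustment was by Benjamini-Hochberg over all 17778 genes, and "called" means an adjusted p under 0.05. Among all genes tested, 15.6% were called lower and 14.9% higher. The median log2 fold change of the 10 genes was -0.25, and that of all genes tested was -0.0072. For a single gene, 3 mice per group leave a two-sided exact permutation test with a smallest p of 0.1. It reached this value for the 6 genes whose groups did not overlap, 5 of them lower and 1 higher. Every hyperoxia library lay below every air library for 23.8% of all genes tested, and above for 22.3%.

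**Figure D1:**
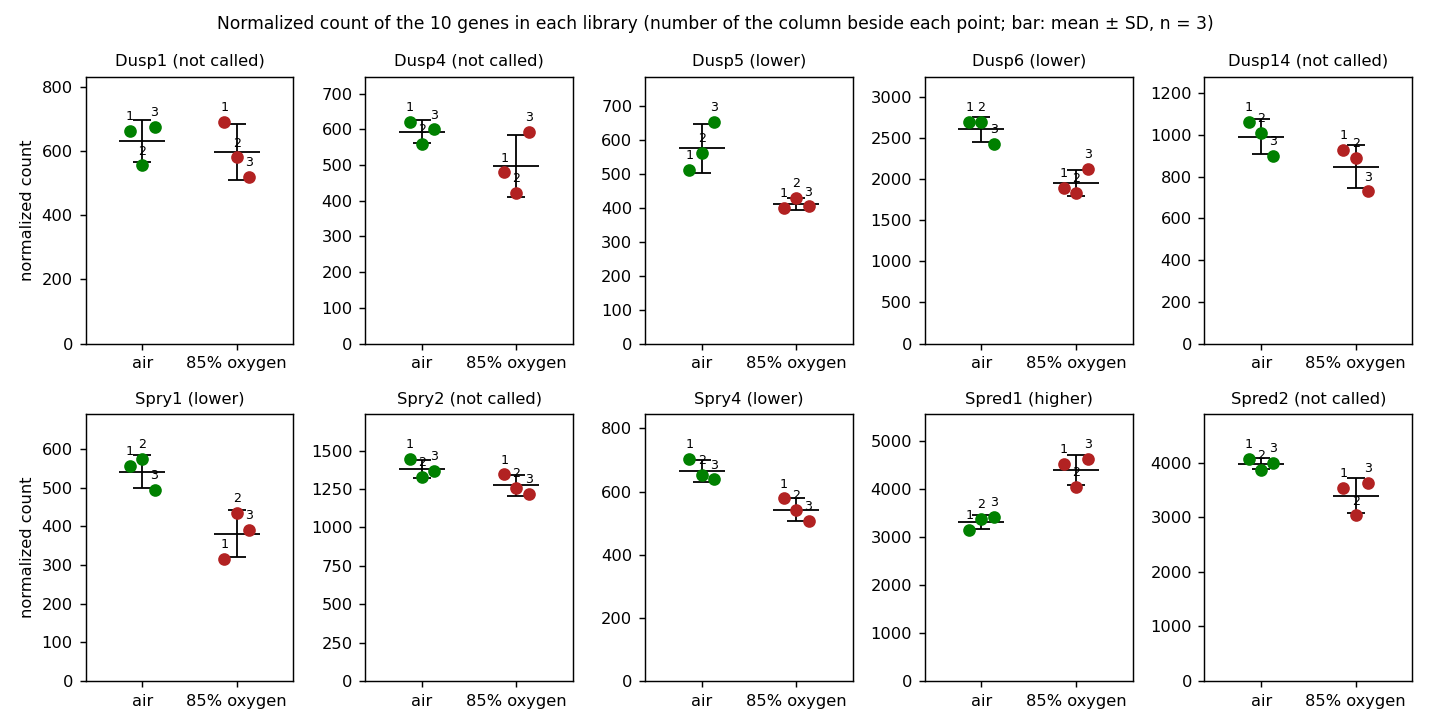
Normalized count (y axis, linear from 0) of each of the 10 genes in the air (green) and 85% oxygen (red) libraries, with the number of the deposited column beside each point and the mean ± SD (n = 3) in black. The groups are apart for Dusp5, Dusp6, Spry1, Spry4 and Spred2, which are lower in hyperoxia, and for Spred1, which is higher.

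Promoter sequences of the called genes are shown first, because ERK and calcium signals reach many early response genes through short promoter motifs. The window of Dusp1 is added as the immediate early gene of the set. Windows run from 250 bases before to 50 bases after the transcription start site in RefSeq on GRCm38.p6 and were found for 8 of the 10 genes, all but Dusp4 and Spry4. Capitals mark 3 motifs, searched on both strands. They are the cAMP response element (CRE, TGACGTCA), its shorter core (TGACG, which every full CRE also holds) and the CArG box, at which serum response factor binds. The windows are chr17:26508423-26508722 (minus strand) for Dusp1, chr19:53528895-53529194 (plus) for Dusp5, chr10:99262981-99263280 (plus) for Dusp6, chr3:37639697-37639996 (plus) for Spry1 and chr2:117120821-117121120 (plus) for Spred1.
Dusp1: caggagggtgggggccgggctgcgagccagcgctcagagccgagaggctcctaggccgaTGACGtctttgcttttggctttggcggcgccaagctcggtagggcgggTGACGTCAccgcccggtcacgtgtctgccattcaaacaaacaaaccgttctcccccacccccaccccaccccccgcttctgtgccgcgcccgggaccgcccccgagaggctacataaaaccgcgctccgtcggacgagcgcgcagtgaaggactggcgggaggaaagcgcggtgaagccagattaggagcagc
Dusp5: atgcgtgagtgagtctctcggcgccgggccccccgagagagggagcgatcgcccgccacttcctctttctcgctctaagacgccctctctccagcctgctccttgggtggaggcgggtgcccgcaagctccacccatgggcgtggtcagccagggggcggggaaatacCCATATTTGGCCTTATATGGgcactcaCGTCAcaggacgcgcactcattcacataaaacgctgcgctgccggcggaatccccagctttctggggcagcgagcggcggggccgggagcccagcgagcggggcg
Dusp6: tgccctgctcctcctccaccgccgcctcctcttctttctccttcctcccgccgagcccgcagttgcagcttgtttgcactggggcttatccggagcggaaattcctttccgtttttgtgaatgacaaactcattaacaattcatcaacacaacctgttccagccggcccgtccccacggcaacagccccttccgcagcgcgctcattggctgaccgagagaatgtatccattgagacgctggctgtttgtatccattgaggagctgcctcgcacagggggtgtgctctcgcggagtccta
Spred1: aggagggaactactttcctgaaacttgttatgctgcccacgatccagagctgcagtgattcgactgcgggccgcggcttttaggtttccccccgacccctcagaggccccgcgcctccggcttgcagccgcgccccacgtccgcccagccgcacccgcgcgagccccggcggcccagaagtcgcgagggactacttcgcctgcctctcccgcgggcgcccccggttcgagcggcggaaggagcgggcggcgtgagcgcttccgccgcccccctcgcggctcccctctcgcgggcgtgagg
Spry1: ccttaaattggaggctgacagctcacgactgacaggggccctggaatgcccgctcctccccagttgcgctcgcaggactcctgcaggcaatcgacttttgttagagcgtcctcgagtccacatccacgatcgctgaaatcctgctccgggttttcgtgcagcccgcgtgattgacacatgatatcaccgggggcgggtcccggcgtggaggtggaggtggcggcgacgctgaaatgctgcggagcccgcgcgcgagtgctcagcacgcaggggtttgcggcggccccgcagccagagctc
A full CRE was found 143 bases before the start site of Dusp1 and in no other of the 8 windows, against 1.79% of the 32851 RefSeq windows of this length. Dusp5 held 2 CArG boxes, beginning 82 and 72 bases before its start site, a motif in 1.629% of all windows. The core was in the windows of Dusp1, Dusp5 and Spred2, against 20.81% of all windows. Single patterns for 3 further families of ERK-responsive factors were AP-1 (TGANTCA, in 7.808% of all windows), ETS (CCGGAAG, 8.858%) and EGR (GCGNGGGCG, 5.552%). None of these patterns had a match in the 8 windows, and looser forms were not searched. The SP1 motif (GGGCGGG, 25.57% of all windows) was in Dusp1, Dusp5 and Spry1, and the E-box (CACGTG, 7.15%) in Dusp1. The printed windows of Dusp6, Spry1 and Spred1 hold no capitals. A match is a description of these letters, and binding was not measured.

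Dusp6 and Dusp5, which encode phosphatases that act mainly on ERK, the first in the cytoplasm and the second in the nucleus, were both lower in hyperoxia-exposed mice. Dusp6 (ENSMUSG00000019960.8, chr10:99263231-99267489, plus strand, GENCODE M21 on GRCm38) had normalized counts of 2702, 2693 and 2434 in air libraries 1, 2 and 3 and of 1898, 1831 and 2128 in hyperoxia libraries 1, 2 and 3. All hyperoxia libraries were below all air libraries, with hyperoxia library 3 nearest to them. The mean fell from 2610 ± 152 to 1952 ± 156 (SD, n = 3 each), a log2 fold change of -0.42 (SE 0.08, limma adjusted p = 0.0053). Dusp5 (ENSMUSG00000034765.6, chr19:53529109-53542431, plus strand) had normalized counts of 511, 560 and 653 in the air libraries and 399, 429 and 403 in the hyperoxia libraries. The hyperoxia libraries lay close together, and the air libraries spread more widely above them. Its mean fell from 575 ± 72.0 to 410 ± 16.4 (SD, n = 3 each), a log2 fold change of -0.48 (SE 0.11, limma adjusted p = 0.0092). Both calls held under all 16 alternatives of processing and left-out libraries. Dusp5 shares 547 exon bases with AC137853.2 on the opposite strand, and the strand setting of the counting is not known here.

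Dusp1, Dusp4 and Dusp14 did not pass the test, and the libraries of the groups overlapped for each. Dusp1 (ENSMUSG00000024190.6, chr17:26505590-26562128, minus strand), an immediate early gene whose nuclear product also acts on p38 and JNK, had normalized counts of 663, 555 and 676 in the air libraries and 691, 580 and 518 in the hyperoxia libraries. The highest and the lowest of these values were both in hyperoxia. Its log2 fold change was -0.09 (95% interval -0.36 to 0.19, limma adjusted p = 0.63), and it was above 0 after a correction for transcript length and GC content (0.04) and without hyperoxia library 3 (0.01). It was lowest, at -0.20, without hyperoxia library 1. Dusp4 (ENSMUSG00000031530.6, chr8:34807297-34819894, plus strand), a nuclear phosphatase related to Dusp1, had normalized counts of 622, 559 and 600 in the air libraries and 479, 421 and 592 in the hyperoxia libraries. Hyperoxia libraries 1 and 2 were below the air libraries, and hyperoxia library 3 was among them. The log2 fold change of Dusp4 was -0.27 (95% interval -0.55 to 0.01, limma adjusted p = 0.13), and without hyperoxia library 3 it was -0.40 (adjusted p = 0.018). It was -0.15 without hyperoxia library 2 (adjusted p = 0.25) and also after the length and GC correction (adjusted p = 0.45). Dusp14 (ENSMUSG00000018648.15, chr11:84048041-84069261, minus strand), a small atypical member of the family without the usual MAPK-binding domain, had normalized counts of 1065, 1013 and 900 in the air libraries and 928, 890 and 730 in the hyperoxia libraries. Here hyperoxia library 1 lay above air library 3. Its log2 fold change was -0.23 (95% interval -0.47 to 0.02, limma adjusted p = 0.14), with -0.10 after the length and GC correction and -0.12 without hyperoxia library 3.

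Among the Sprouty genes, Spry1 and Spry4 were lower in hyperoxia-exposed mice, and Spry2, the most highly expressed of them per length, did not pass the test. Spry1 (ENSMUSG00000037211.12, chr3:37639947-37644598, plus strand) had normalized counts of 557, 575 and 494 in the air libraries and 316, 436 and 392 in the hyperoxia libraries. No hyperoxia library reached the air range, and library 1 was the lowest. The mean fell from 542 ± 42.5 to 381 ± 60.9 (SD, n = 3 each), a log2 fold change of -0.52 (SE 0.13, limma adjusted p = 0.014), the largest fall among the 10 genes in this fit. Spry4 (ENSMUSG00000024427.6, chr18:38586247-38601415, minus strand) had normalized counts of 703, 653 and 639 in the air libraries and 578, 542 and 507 in the hyperoxia libraries. The groups were apart, with all hyperoxia libraries below air library 3. Its log2 fold change was -0.29 (SE 0.09, limma adjusted p = 0.032). Spry2 (ENSMUSG00000022114.4, chr14:105891947-105896819, minus strand) had normalized counts of 1446, 1326 and 1370 in the air libraries and 1345, 1257 and 1216 in the hyperoxia libraries. Hyperoxia library 1 lay within the air range and the others just below it. The log2 fold change of Spry2 was -0.12 (95% interval -0.29 to 0.05, limma adjusted p = 0.27), and -0.08 after the length and GC correction.

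The calls of Spry1 and Spry4 depended on which libraries were kept. Without air library 1 or 2 the adjusted p of Spry1 was 0.064 and 0.068. The adjusted p of Spry4 was 0.13, 0.092 and 0.068 without air library 1, 2 or 3, 0.081 without hyperoxia library 3, and 0.054 in limma without the trend. Spry1 shares 710 exon bases with Gm42922 on the opposite strand, whose mean normalized count was 8.07.

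Of the pair of Spred genes, Spred1 was higher in hyperoxia-exposed mice and Spred2 did not pass the test. Spred1 (ENSMUSG00000027351.14, chr2:117121374-117182279, plus strand), which carries neurofibromin to the membrane, had normalized counts of 3143, 3371 and 3411 in the air libraries and 4520, 4041 and 4619 in the hyperoxia libraries. All hyperoxia libraries were above all air libraries. Its mean rose from 3308 ± 145 to 4393 ± 309 (SD, n = 3 each), a log2 fold change of 0.41 (SE 0.08, limma adjusted p = 0.0044). Spred2 (ENSMUSG00000045671.17, chr11:19924375-20024026, plus strand), a close relative with the same domains, had normalized counts of 4068, 3865 and 4000 in the air libraries and 3531, 3032 and 3620 in the hyperoxia libraries. All hyperoxia libraries were below all air libraries, with library 2 the lowest, but the log2 fold change of -0.23 (95% interval -0.42 to -0.05) had a limma adjusted p of 0.056. The call of Spred1 held under all 16 alternatives, but after the correction for transcript length and GC content its log2 fold change was 0.17 (adjusted p = 0.029). Spred2 had an adjusted p of 0.044 after quantile normalization, 0.016 after the length and GC correction and 0.032 without hyperoxia library 3. Under the other 13 alternatives it was 0.051 to 0.17, the highest without air library 1, and without hyperoxia library 2 the log2 fold change was -0.15.

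Set against each other within a library, the normalized counts of the Spred genes changed order, with no correction for gene length. The ratio of the normalized count of Spred1 to that of Spred2 was 0.772, 0.872 and 0.853 in air libraries 1, 2 and 3 and 1.28, 1.33 and 1.28 in the hyperoxia libraries. Each air library had a lower normalized count for Spred1 than for Spred2, and each hyperoxia library a higher one. Spred1 has 6784 exon bases and Spred2 has 4619, and per kilobase the mean of Spred2 was the higher in both groups. Spred1 to Spred3 gave 1.03, 1.29 and 1.25 in air and 2.15, 2.11 and 2.33 in hyperoxia. The ratio of Spry4 to Spry2 was 0.487, 0.493 and 0.466 in air and 0.430, 0.432 and 0.417 in hyperoxia, and that of Spry1 to Spry2 was 0.385, 0.434 and 0.361 in air and 0.235, 0.347 and 0.322 in hyperoxia. The groups did not overlap for these 4 ratios. They overlapped for Dusp6 to Dusp7 and for Dusp5 to Dusp4. These pairs were chosen after the values were seen and are given as a description with no test, and a ratio does not show which of its genes changed.

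**Figure D2:**
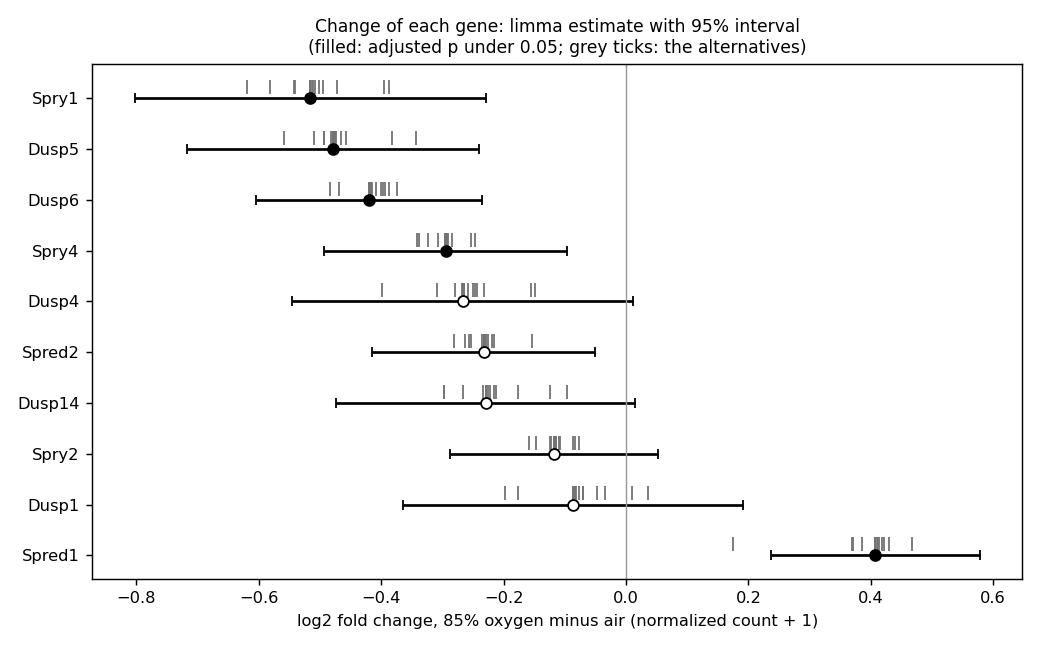
Log2 fold change of each gene, 85% oxygen minus air, on the scale of log2 of the normalized count plus 1 (x axis). Points are limma estimates with their 95% intervals, filled where the adjusted p is under 0.05, and grey ticks give the 16 alternatives. Spred1 is the single gene to the right of 0 (0.41, with 1 tick at 0.17), and 5 of the 9 genes to the left have open points.

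The size of the differences varied from mouse to mouse. Relative to the mean of the air libraries on the log2 scale, hyperoxia library 1 had the deepest value of any gene, -0.77 for Spry1, but was 0.14 above for Dusp1. Hyperoxia library 2 was lowest of its group for 4 genes, among them Dusp4 (-0.49) and Dusp6 (-0.51), and hyperoxia library 3 for 4, among them Dusp14 (-0.44) and Spry4 (-0.39). In hyperoxia libraries 1, 2 and 3, 6, 8 and 8 of the 10 genes were below the range of the air libraries, against 40.8%, 39.2% and 40.1% of all genes tested. Above that range were 2, 1 and 1 genes (38% to 39.8% of all genes tested), in each library Spred1 and in library 1 also Dusp1. The spread within a group was widest for Dusp4 in hyperoxia, with a coefficient of variation of 17.4%, and narrowest for Spred2 in air, with 2.60%. Each gene had at least 357 reads in every library, so counting error alone was at most 5.29%.

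**Figure D3:**
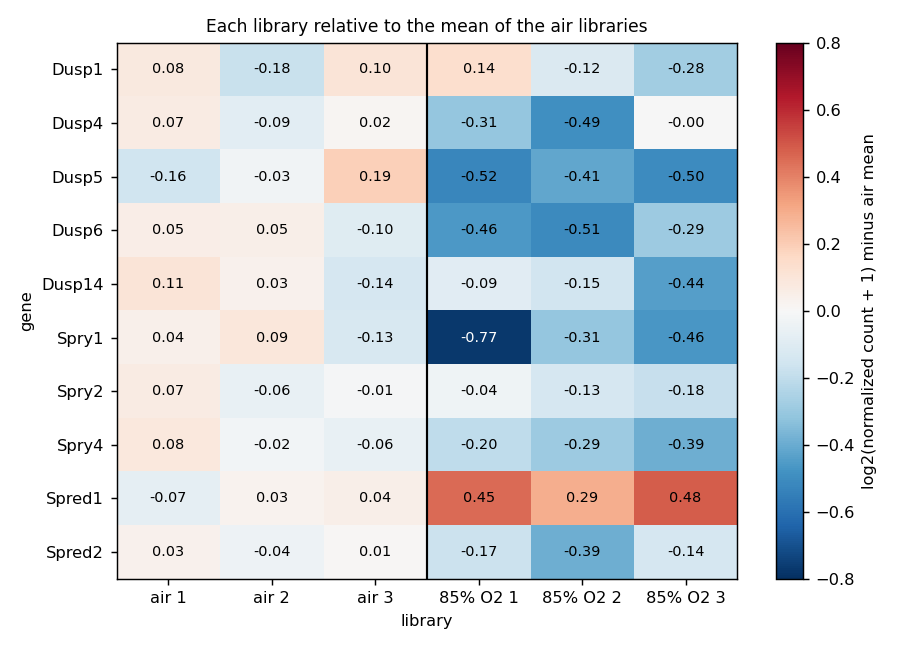
Log2 of the normalized count plus 1 in each library minus the mean of the air libraries, with genes as rows, libraries as columns, and blue below and red above that mean. The hyperoxia columns are blue for most genes, red throughout for Spred1, and mixed for Dusp1 (0.14, -0.12 and -0.28).

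Per kilobase of exon, the order of the 10 genes was led by Spred2 in both groups. In air, Spred2 had a mean normalized count of 861 ± 22.4 per kilobase (SD, n = 3), followed by Dusp6 (833 ± 48.5), Spry2 (661 ± 29.0), Dusp14 (510 ± 43.3) and Spred1 (488 ± 21.3). Spred2 and Dusp6 did not differ beyond their SDs, nor did Dusp14 and Spred1. The lower levels in air were those of Dusp5 (232 ± 29.1), Dusp4 (217 ± 11.6), Dusp1 (191 ± 20.1), Spry1 (186 ± 14.6) and Spry4 (140 ± 7.16). Neighbours among these overlapped within their SDs, except Spry1 and Spry4. In hyperoxia, Spred1 came next to Spred2, at 648 ± 45.6 against 735 ± 68.7 per kilobase, and Dusp6 (623 ± 49.8) and Spry2 (610 ± 31.4) followed, with the SDs of neighbours overlapping among all of these. Dusp14 lay apart from both neighbours at 437 ± 54.1. Dusp5, at 166 ± 6.61 per kilobase, came after Dusp4 (182 ± 31.6) and Dusp1 (180 ± 26.5), with overlapping SDs. Spry1 (131 ± 20.9) and Spry4 (114 ± 7.51) were again the lowest, and there they overlapped.

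The remaining MAPK phosphatases of the typical kind went in both directions, with no overlap between the groups for 2 lower and 2 higher genes. Among all genes tested, the groups were apart for 23.8% lower and 22.3% higher, and 15.6% were called lower and 14.9% higher. Of the 6 phosphatases tested, limma called 1 higher and 0 lower, and their median log2 fold change was 0.15. The counts were the same with edgeR and with DESeq2 on the recovered reads, and in limma 2 were lower at an unadjusted p under 0.05, Dusp7 and Dusp10. Dusp2, a nuclear phosphatase known from activated immune cells, had normalized counts of 24.5, 15.3 and 22.6 in the air libraries and 54.8, 45.3 and 37.6 in the hyperoxia libraries, the highest air value lying below the lowest hyperoxia value. Its log2 fold change was 1.12 (SE 0.26, limma adjusted p = 0.012), and without hyperoxia library 1 the adjusted p was 0.056. Dusp7, the cytoplasmic ERK phosphatase closest to Dusp6, went from 3954 ± 121 to 3380 ± 305 (log2 fold change -0.23, adjusted p = 0.056), with adjusted p-values of 0.049 and 0.028 without hyperoxia library 1 or 2, and -0.12 after the length and GC correction (adjusted p = 0.17). Dusp10, which acts on p38 and JNK, went from 248 ± 18.4 to 201 ± 6.51 (-0.30, adjusted p = 0.065), with adjusted p-values of 0.038 after quantile normalization and 0.043 without hyperoxia library 2. Dusp8 (0.13, adjusted p = 0.18) and Dusp16 (0.18, adjusted p = 0.23), which act on JNK and p38, and Dusp9 (0.36, adjusted p = 0.38) were also not called. Without hyperoxia library 2, Dusp16 had an adjusted p of 0.037, and its log2 fold change was 0.07 after the length and GC correction. With 1 library left out, Dusp9 ranged from 0.15 (without air library 3) to 0.61 (without air library 2). Styxl1, an inactive relative, was below the filter.

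The other members of the Sprouty and Spred families split as well. Spred3 had normalized counts of 3064, 2623 and 2722 in the air libraries and 2105, 1913 and 1984 in the hyperoxia libraries, with no overlap. It fell by 0.48 on the log2 scale (SE 0.08, limma adjusted p = 0.0027), and was called under all 16 alternatives. Spry3 had normalized counts of 198, 229 and 235 in the air libraries and 293, 257 and 300 in the hyperoxia libraries. It rose by 0.36 (SE 0.12, adjusted p = 0.042), a call that held under 7 of 15 alternatives. Leaving out air library 1, 2 or 3 gave adjusted p-values of 0.16, 0.095 and 0.069, and leaving out hyperoxia library 1 or 3 gave 0.13 and 0.10.

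Atypical dual-specificity phosphatases, small enzymes of which many act on substrates other than MAPKs, moved in both directions. Of 11 tested, 3 were called lower and 1 higher (15.6% and 14.9% of all genes tested), with a median log2 fold change of -0.08. Dusp19, which acts in the JNK pathway, fell from 366 ± 10.7 to 249 ± 6.03 (log2 fold change -0.55, limma adjusted p = 0.0028). Dusp26, abundant in brain, rose from 1071 ± 39.7 to 1883 ± 423 (0.79, adjusted p = 0.0041). Dusp23 fell from 237 ± 22.8 to 161 ± 27.9 (-0.57, adjusted p = 0.019), with adjusted p-values of 0.064, 0.089 and 0.052 without air library 1, air library 2 or hyperoxia library 1. Dusp3, with the highest level of those not called, had a log2 fold change of 0.17 (adjusted p = 0.16), with 0.25 without hyperoxia library 2 (adjusted p = 0.011) and 0.09 without hyperoxia library 1 (adjusted p = 0.47).

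Other inhibitors of RAS and ERK signalling were called in both directions, 4 lower and 5 higher of 14 (15.6% and 14.9% of all genes tested). Their median log2 fold change was 0.12. Pebp1, which binds RAF, fell from 8589 ± 642 to 6486 ± 576 (log2 fold change -0.41, limma adjusted p = 0.0080), and by 0.21 after the length and GC correction. Lrig1, which lowers the amount of growth factor receptors, rose from 994 ± 22.1 to 1398 ± 160 (0.49, adjusted p = 0.0047). Rasal1, another RAS inhibitor, was not called at 0.23 (adjusted p = 0.18), with adjusted p-values of 0.020 after the length and GC correction and 0.0039 without hyperoxia library 3. Without hyperoxia library 1 or 2 it was at 0.15.

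The median log2 fold change of 17 genes linked to ERK output was -0.22. Of these, 5 were called lower and 3 higher (15.6% and 14.9% of all genes tested). This count in both directions has no test of the list, which holds transcription factor genes beside genes used as readouts. Elk1 and Srf, which encode the partners that bind the CArG box and its neighbouring ETS site, were both lower. Their mRNA is not itself a usual readout of ERK output. Elk1 fell from 2810 ± 46.3 to 1899 ± 61.4 (log2 fold change -0.57, limma adjusted p = 0.00070), and Srf from 2897 ± 103 to 2018 ± 56.5 (-0.52, adjusted p = 0.0010). Ier3, an early response gene, went the other way, from 73.3 ± 8.63 to 258 ± 42.5 (1.79, adjusted p = 0.00029). Epha4, the most highly expressed gene of the list that was not called, was at -0.01 (adjusted p = 0.97), with normalized counts of 10712 to 11089 in air and of 11399, 7753 and 14456 in hyperoxia libraries 1, 2 and 3. Its log2 fold change was 0.23 without hyperoxia library 2 (adjusted p = 0.056) and -0.22 without hyperoxia library 3 (adjusted p = 0.25).

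Of 18 genes of the kinase cascade itself, from RAS to ERK and its RSK targets, 2 were called lower and 3 higher, with a median log2 fold change of 0.13. Over all genes tested, 30.5% were called in either direction. Nras rose from 2032 ± 98.6 to 2545 ± 132 (log2 fold change 0.32, limma adjusted p = 0.0099), and was at 0.20 after the length and GC correction. Rps6ka3, an ERK-activated kinase, rose from 1285 ± 12.9 to 1759 ± 245 (0.44, adjusted p = 0.011), but after that correction it was at 0.15 (adjusted p = 0.10). The scaffold gene Ksr1 fell from 4343 ± 127 to 3485 ± 272 (-0.32, adjusted p = 0.012). Nras had an adjusted p of 0.059 without air library 2, and Ksr1 of 0.058 without air library 3.

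In the JNK and p38 arms, 2 of 10 genes were called lower and 2 higher (15.6% and 14.9% of all genes tested). The median log2 fold change was -0.17. Map2k7, an activator of JNK, fell from 1998 ± 22.8 to 1541 ± 71.7 (log2 fold change -0.38, limma adjusted p = 0.0041). The JNK genes Mapk9 and Mapk8 rose, the first from 5265 ± 126 to 6781 ± 435 (0.36, adjusted p = 0.0053) and the second from 3619 ± 76.4 to 4632 ± 400 (0.35, adjusted p = 0.0090). After the length and GC correction Mapk8 was at 0.12 (adjusted p = 0.18). Map2k4, the other activator of JNK, was not called at -0.14 (adjusted p = 0.15), and had an adjusted p of 0.025 after that correction.

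Upstream of the cascade, ligands and receptors had opposite medians. Among all genes tested, 15.6% were called lower and 14.9% higher. Of 15 growth factor genes, 4 were called lower and 1 higher, with a median log2 fold change of -0.18. Ntf3 (neurotrophin-3) fell from 422 ± 37.97 to 211 ± 30.3 (log2 fold change -1.003, limma adjusted p = 0.0010). Nrg1 (neuregulin-1) rose from 145 ± 13.0 to 225 ± 30.4 (0.62, adjusted p = 0.0089). Tgfa had -0.25 (adjusted p = 0.057) and passed the threshold after the length and GC correction and without hyperoxia library 2 or 3, with adjusted p-values of 0.021, 0.023 and 0.032. Of 14 receptor tyrosine kinase genes tested, 2 were called lower and 7 higher, with a median of 0.31. Met rose from 117 ± 12.3 to 508 ± 209 (2.04, adjusted p = 0.00077), Pdgfra from 3167 ± 114 to 4737 ± 98.9 (0.58, adjusted p = 0.00059) and Egfr from 720.4 ± 28.4 to 1098 ± 26.6 (0.61, adjusted p = 0.00089), which after the length and GC correction was at 0.30 (adjusted p = 0.055). Ntrk2, which encodes the BDNF receptor TrkB, was at -0.01 (adjusted p = 0.91), and after that correction at -0.25 (adjusted p = 0.019).

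**Figure D4:**
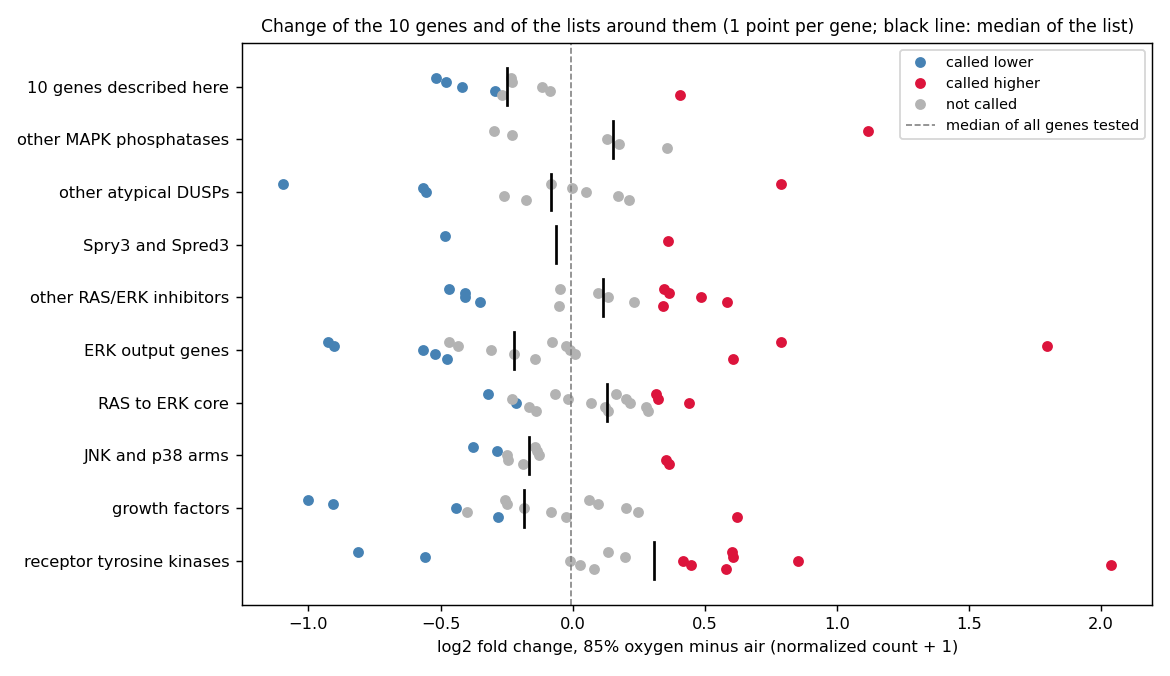
Log2 fold change, 85% oxygen minus air (x axis, log2 of the normalized count plus 1), of the 10 genes and of the 9 lists around them, 1 point per gene, coloured by call. Black lines are list medians and the dashed line is the median of all genes tested (-0.0072). The 10 genes have a median of -0.25, and the receptor tyrosine kinases one of 0.31.

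Over the 9 lists, 107 of 110 genes were tested, and 23 were called lower and 24 higher. With the length and GC correction these counts were 30 and 19. Over all genes tested, 2782 were called lower and 2643 higher in the main test, and 3370 and 2821 with that correction. The lists were chosen with earlier results known, and the counts are a description. Leaving out air library 1 gave 14 lower and 16 higher in the lists, and leaving out hyperoxia library 2 gave 36 and 33. Over all genes tested, the first of these fits called 1603 lower and 1445 higher, and the second 3918 and 3838.

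The summed level of some marker lists differed between the groups with no overlap (oligodendrocytes, dentate granule cells, CA3 and astrocytes), and that of the others overlapped. Of 8 oligodendrocyte markers, 7 were called lower, and their summed normalized count was 217460 to 330442 in air and 149240 to 182288 in hyperoxia. Of 6 dentate granule cell markers, 4 were called lower, with sums of 15954 to 16752 and 9634 to 14431. The same number of 6 CA3 markers were called lower, with sums of 9022 to 9702 and 6989 to 8983. Among all genes tested, 15.6% were called lower and 14.9% higher. The largest part of the oligodendrocyte sum was a single marker that was called lower. The largest part of the dentate sum was a single marker that was not called and whose groups overlapped, so that sum does not stand for its whole list. Markers of oligodendrocyte precursors (2 of 8 called higher) had sums of 22894 to 25784 in air and 24820 to 28169 in hyperoxia, and those of astrocytes (3 of 8 higher, 1 lower) sums of 203420 to 213015 and 238892 to 257925. The largest part of the astrocyte sum was Slc1a2, which rose from 104640 ± 6138 to 149380 ± 15672. Aldoc fell from 35452 ± 754 to 27556 ± 4001, and 4 of the 8 were not called, so the sum does not stand for the whole list. Called higher were 2 of 6 CA1, 2 of 8 microglia and 2 of 6 thalamus markers, and interneuron markers (1 of 8 each way) and endothelial markers (3 of 8 higher, 2 lower) were mixed. None of the hippocampal markers was at 0 in all libraries. Neocortex markers (3 of 6 higher) had sums of 7698 to 8593 and 8488 to 11580, and choroid plexus markers reached 8115 in hyperoxia library 3 against 457 to 1409 in the other libraries. The part of these cell types in the changes of the 10 genes was not tested.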

How the data were processed

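RNA-seq libraries of the left hippocampus of 6 mice at P14, 3 per group, were strand-specific, polyA-selected and read as paired ends. Per the submitters' processing notes, the tools were FastQC, STAR 2.5.3a, HTSeq and DESeq2. Not given in the sources used here are the genome build, the annotation and the strand setting of the counting. The authors deposited a normalized count (a signal that is never negative), in which the read counts of a library are divided by 1 size factor. A second deposited table of the authors' own comparison (mean, log2 fold change, standard error, Wald statistic, p-value and adjusted p) was not used.

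All values (100%) lay within 0.01 of a whole number of reads, which gave 30384052 to 38746972 reads on genes per library. Replicate pairs differed by more than sampling noise (chi-square per gene 6.51 to 47.2). The first principal component (52.7% of variance) parted the groups, and the second (19.5%) set hyperoxia library 2 apart. The titles number the animals, so replicates are separate mice.

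For the main test, limma 3.58.1 was run in R 4.3.3, with a trend, on log2(value + 1), hyperoxia minus air. Genes with a mean of 10 or more (17778) entered and were called at a Benjamini-Hochberg adjusted p under 0.05. Fold changes on this scale understate those of low genes. In simulated data, the main test recovered 69% of log2 changes of 0.5 and 90% of changes of 1. Of its calls there, 6.47% were false. The simulation gave both groups the same spread, so it does not cover groups that differ in spread. The 16 alternatives changed the pseudocount (0.5 or 5), the filter (none, or a mean of 50), the scaling (quantile or TMM) or the test (limma with no trend, edgeR 4.0.16 or DESeq2 1.42.0 on recovered reads), regressed each library on transcript length and GC content with mgcv 1.9.3, or left out 1 of the 6 libraries. Positions and exon lengths came from GENCODE M21 (GRCm38), which holds 99.68% of the gene identifiers, and promoters from RefSeq (GRCm38.p6).

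The 10 genes and all lists were chosen with earlier results of these data known. Named are all 10 genes, every other typical MAPK phosphatase, Spry3 and Spred3, and of each other list up to 3 called genes with the lowest adjusted p and the most highly expressed gene not called. Some genes that this rule names are not reported here. Marker lists are given as counts and ranges, with Slc1a2 and Aldoc named beside the sum of their list.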

Additional observations from a re-analysis of the deposited data

How the results depend on the processing

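No paired analysis was possible because the animals are numbered 1 to 6 with no number shared between the groups. The count of genes called lower among the 10 was 3 to 5 under the alternatives that kept all libraries, against 4 in the main test. It ranged from 2 to 5 when 1 library was left out, and was 2 without air library 1 or air library 2. Over all genes tested, the count called lower was 2782 in the main test, and 1603 and 1609 without air library 1 or air library 2. Among the 10, exactly 1 gene, Spred1, was called higher under all 16 alternatives. Over the 9 lists the count of genes called lower ranged from 14 (without air library 1) to 36 (without hyperoxia library 2), and the count called higher from 16 to 33 in the same fits. Over all genes tested, these fits called 1603 and 3918 lower, and 1445 and 3838 higher. Leaving out a library also changes the number of samples, and the cause was not tested. Of the 160 values of single genes among the 10, 149 kept direction and side of the threshold or stayed uncalled, 7 lost the call and 4 gained it. Among the genes of the lists, 1 changed its sign with a call, Ntrk3, at 0.03 in the main test (adjusted p = 0.88) and -0.34 after the length and GC correction (adjusted p = 0.0019). For Dusp5 in hyperoxia, counting error at the lowest read count was above the spread between mice (5.14% against a coefficient of variation of 3.99%). Depth therefore sets part of its error. With 3 mice per group, single outlying libraries were not tested for.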
